A study of Mus musculus with 20 samples.

Results

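The MHC class II genes followed here were Cd74, H2-Aa, H2-Ab1, H2-Eb1, H2-DMa, H2-DMb1, Ciita and Ctss. They were taken by name and made up 8 of the 43346 genes counted. All 8 were present in the gene counts, and all 8 were among the 18883 genes that passed the filter on low counts. They were measured by RNA-seq in 20 breast tumors and set against Ptprc, which encodes the leukocyte surface phosphatase CD45, and Csf1r, which encodes the CSF-1 receptor of macrophages and monocytes. Each tumor came from a different female F1 mouse, bred from BALB/c males carrying the rat neuT oncogene (a form of Her2/neu) and wild-type FVB/J females. Every mouse carried the transgene, so the tumors share 1 driver and 1 F1 background, and no normal mammary tissue or transgene-negative mouse is part of the comparisons. The sample names sort the tumors into 9 named Lo and 11 named Hi. The sources used here do not explain these names, so they serve only to label groups, and each tumor is called by its group and number.

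Class II molecules present peptides to CD4 T cells. An alpha chain and a beta chain pair in the endoplasmic reticulum and bind the invariant chain Cd74, which blocks the peptide groove and directs the complex to endosomes. There proteases such as cathepsin S trim the invariant chain, and H2-DM exchanges its last fragment for peptide. Dendritic cells, B cells and macrophages express class II molecules constitutively or after activation. Epithelial and other cells can express them after exposure to interferon gamma. In both cases transcription of the class II chain genes depends on the coactivator Ciita. Ciita does not bind DNA itself but joins RFX, CREB and NF-Y factors on the X and Y boxes of class II promoters.

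Promoter stretches are shown for H2-Aa and H2-Eb1, which varied together across the tumors, and for Ctss, whose window lacked the paired boxes. RefSeq windows from GRCm38.p6 (the mm10 assembly) matched 5 of the 8 genes, and the 140 bases before the listed start are printed 5′ to 3′ on the strand of the gene. Capitals mark an X1-type box (CNNGNAAC) and a Y-type box (ATTGG) that follows it by 20 to 32 bases, or, in Ctss, a repeat of the interferon response type (GAAA, any 2 bases, then GAAA).
H2-Aa, chr17:34287824-34287963, minus strand: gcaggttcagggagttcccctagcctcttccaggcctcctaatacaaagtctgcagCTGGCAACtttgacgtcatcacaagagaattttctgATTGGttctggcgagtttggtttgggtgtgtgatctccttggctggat
H2-Eb1, chr17:34305727-34305866, plus strand: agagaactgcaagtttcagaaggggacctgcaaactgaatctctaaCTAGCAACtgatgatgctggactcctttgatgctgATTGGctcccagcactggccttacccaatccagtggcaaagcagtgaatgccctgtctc
Ctss, chr3:95526646-95526785, plus strand: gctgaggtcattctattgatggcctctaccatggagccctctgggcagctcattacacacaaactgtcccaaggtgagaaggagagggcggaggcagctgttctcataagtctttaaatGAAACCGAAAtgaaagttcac
In H2-Aa the boxes were 28 bases apart and the Y-type box ended 43 bases before the start, and in H2-Eb1 these distances were 27 and 54 bases. Both strands of the 250 bases before each start were searched. The ordered pair of boxes was found in 0.438% of 32851 windows of this length, against 33.3% for the X1-type box alone and 33.8% for the Y-type box alone. H2-DMb1 held the pair with CTAGTAAC as its X1-type box and a spacing of 28 bases. Its window (34152941 to 34153190) runs past the start in the gene counts (34153072), and both boxes lie after that counted start. The window of Ctss did not hold it. The windows of H2-DMa did not hold it either, but they lie at other starts than the one in the gene counts. The bases before that counted start of H2-DMa were not searched. The interferon response type repeat was found in 2.98% of windows. A match describes letters in these windows and does not show that a factor was bound.

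Levels of the 8 genes were compared with each other as RPKM, a read count scaled to the coding length that the authors list for the gene and to the total count of the tumor. Cd74 (18: 60803848 to 60812646, mm10) was the most abundant, with a mean of 218.1 ± 66.6 RPKM (SD, n = 20). Ctss, the endosomal protease cathepsin S, followed with 73.9 ± 15.4 RPKM. The 3 genes of the class II chains came next, with 35.8 ± 11.2 RPKM for H2-Eb1, 26.6 ± 8.09 RPKM for H2-Ab1 and 20.8 ± 6.51 RPKM for H2-Aa. Below them lay the chains of the peptide editor, H2-DMb1 with 7.93 ± 1.01 RPKM and H2-DMa with 6.34 ± 1.36 RPKM. The chain and editor genes lie together on chromosome 17, between 34135182 (H2-DMa) and 34316199 (H2-Eb1), and Ctss lies on chromosome 3 (95526786 to 95556403). Ciita (16: 10488178 to 10527564) was the least abundant member, with 1.4 ± 0.41 RPKM. For comparison, Csf1r had 12.6 ± 1.92 RPKM and Ptprc 1.09 ± 0.25 RPKM.

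This order held within every tumor. For each neighboring pair in the order of means, reference genes included, the higher gene was the higher one in 20 of 20 tumors, although the ranges over tumors overlapped for every neighboring pair except H2-DMa and Ciita. Some pairs kept a near-fixed proportion. H2-Ab1 stood at 1.09 to 1.5 times the RPKM of H2-Aa, its partner in the A molecule, and H2-Eb1 stood at 1.18 to 1.46 times that of H2-Ab1. Cd74 stood at 7.44 to 9.29 times the level of H2-Ab1. The editor chains did not hold such a proportion, since H2-DMb1 stood at 1.02 times H2-DMa in Hi 6 and at 2.20 times in Lo 3.

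**Figure D1:**
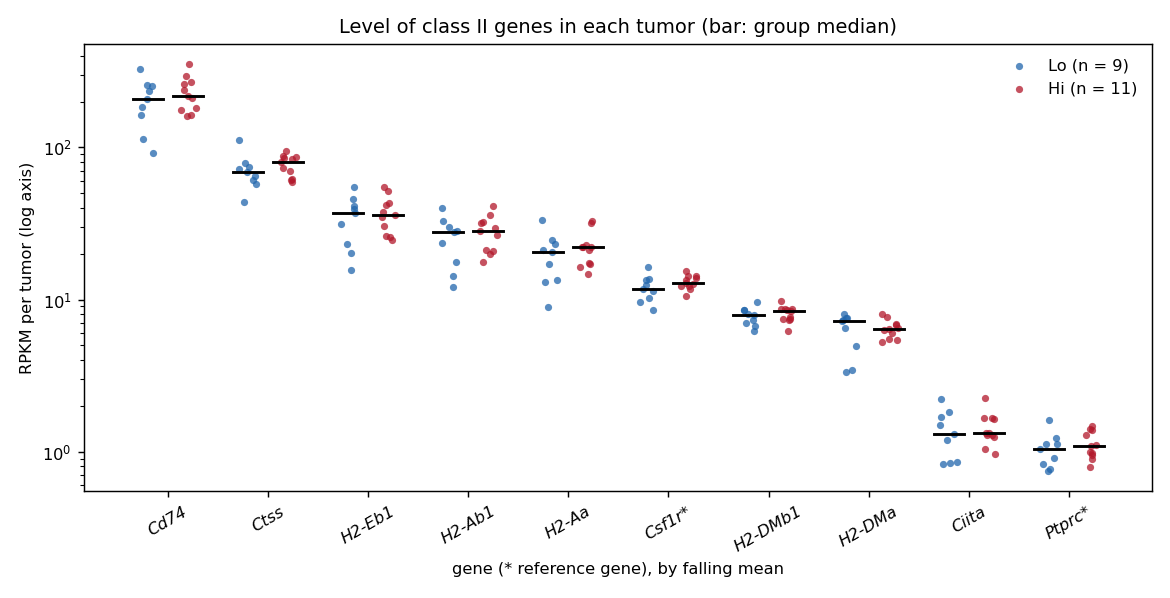
Expression of the 8 class II genes and of the reference genes Csf1r and Ptprc in each tumor. The vertical axis is RPKM on a log axis, each point is 1 tumor (Lo in blue, n = 9, and Hi in red, n = 11), and the bar is the group median. Cd74 spans 91.5 to 352 RPKM and Ciita 0.835 to 2.25 RPKM, and Lo and Hi overlap for every gene.

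Lo and Hi tumors were then compared gene by gene with edgeR's quasi-likelihood test. Cd74 had a lowest, median and highest level of 91.5, 207.5 and 328.6 RPKM in the Lo tumors and of 161.0, 217.2 and 352.0 RPKM in the Hi tumors. The Lo group held the tumors with the lowest levels, Lo 3 and Lo 2, and the groups overlapped over most of their range. The log2 difference (Lo minus Hi) was -0.10 ± 0.18 (SE), with an adjusted p of 1.0 over 18883 genes.

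Among the chains, H2-Aa had 8.98, 20.7 and 33.3 RPKM (lowest, median and highest) in Lo and 14.7, 22.01 and 32.7 RPKM in Hi. H2-Ab1 had 12.1, 27.9 and 40.1 RPKM in Lo and 17.7, 28.3 and 41.0 RPKM in Hi. H2-Eb1 had 15.7, 36.9 and 54.9 RPKM in Lo and 24.6, 36.0 and 55.3 RPKM in Hi. For each chain the lowest tumor was Lo 3, Lo 1 was the highest Lo tumor, and the highest Hi tumor (Hi 2 for H2-Aa, Hi 5 for the others) lay close to it, so that the groups overlapped. Their log2 differences were -0.10 ± 0.17 for H2-Aa, -0.07 ± 0.17 for H2-Ab1 and -0.04 ± 0.18 for H2-Eb1.

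The editor chain H2-DMa had 3.32, 7.24 and 7.98 RPKM in Lo and 5.23, 6.41 and 8.07 RPKM in Hi. H2-DMb1 had 6.17, 7.93 and 9.71 RPKM in Lo and 6.19, 8.43 and 9.78 RPKM in Hi. H2-DMa was low in Lo 3 and Lo 2 (3.32 and 3.46 RPKM), whereas H2-DMb1 in Lo 3 (7.32 RPKM) lay inside the range of the Hi tumors. The groups overlapped for both genes. The log2 differences were 0.03 ± 0.13 for H2-DMa and 0.03 ± 0.07 for H2-DMb1.

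Ciita, the coactivator, had 0.835, 1.30 and 2.21 RPKM in Lo and 0.969, 1.32 and 2.25 RPKM in Hi. Ctss had 43.7, 68.7 and 111.8 RPKM in Lo and 59.6, 80.5 and 94.2 RPKM in Hi. Both genes were highest in tumors that were also high for the chains (Hi 5 and Lo 1 for Ciita, Lo 1 for Ctss), and the groups overlapped. The log2 differences were -0.0020 ± 0.16 for Ciita and -0.04 ± 0.11 for Ctss. None of the 8 class II genes was called as different between Lo and Hi, where edgeR called 0.0% of all genes in either direction. Of 18883 genes tested, 1045 had an edgeR unadjusted p under 0.05, where a share of about 0.05 would pass with no difference in any gene. DESeq2 called 1 gene, which was not one of the 8. The median log2 difference of the 8 was -0.04, beside 0.00 over all genes tested. With the level of Ptprc in the model the differences lay between -0.10 and 0.04, and edgeR again called none of the 8. It called 0 genes in all, with 1118 of 18882 at an unadjusted p under 0.05. DESeq2 called 3 genes, none of them a class II gene.

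The spread between tumors was wider for most of these genes than for other genes of like abundance. The SD of log2 CPM (counts scaled to library size after TMM normalization) over the 20 tumors was 0.431 for Cd74, 0.411 for H2-Aa, 0.427 for H2-Ab1 and 0.433 for H2-Eb1, against a median of 0.251 over all genes tested. Of the genes within 0.5 log2 units of the mean level of each, between 95.6% and 96.7% had a smaller SD. Ctss (SD 0.258), H2-DMa (0.316) and Ciita (0.359) lay above 88.2%, 77.1% and 75.3% of genes of like level. H2-DMb1 differed from the other members in this respect, with an SD of 0.143 and only 10.1% of genes of like level below it.

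Individual tumors stood high or low for several class II genes at once. Ranks were taken on CPM. Hi 5 ranked first for Cd74, H2-Aa, H2-Ab1, H2-Eb1, H2-DMb1 and Ciita, and it had rank 4 for H2-DMa and rank 6 for Ctss. Lo 3 ranked last for every member except H2-DMb1, for which it had rank 10. The order can differ on RPKM, where H2-Aa was highest in Lo 1 (33.25) and stood at 32.06 in Hi 5. Cd74 reached 484.2 CPM in Hi 5, which was 3.46 times its level in Lo 3, and H2-Aa ran from 18.3 to 58.6 CPM in the same tumors, a ratio of 3.21. Ciita ran from 4.76 in Lo 3 to 11.6 in Hi 5 (ratio 2.42) and Ctss from 64.5 in Lo 3 to 132.9 in Lo 1 (ratio 2.06). H2-DMb1 covered the narrowest range, from 9.31 in Hi 6 to 14.2 CPM in Hi 5, a ratio of 1.52. Lo 3 was also lowest for Csf1r with 8.49 RPKM, and Hi 7 was lowest for Ptprc with 13.8 CPM.

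**Figure D2:**
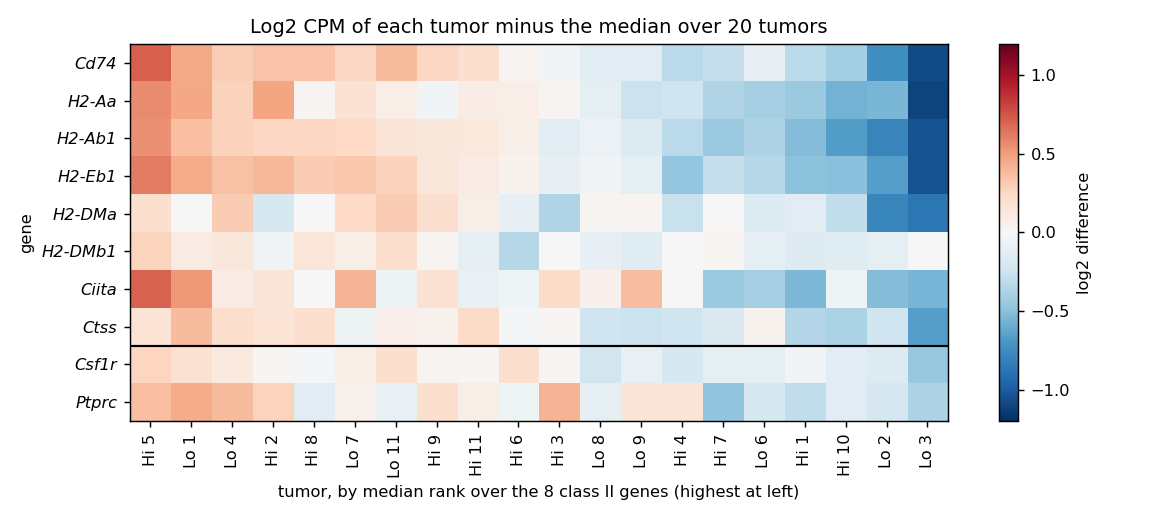
Deviation of each tumor from the median of the 20 tumors, in log2 CPM, for the 8 class II genes (above the line) and for Csf1r and Ptprc (below it). Tumors are ordered from left to right by their median rank over the class II genes, and Lo and Hi tumors are mixed along the order. The left end (Hi 5, Lo 1) is red and the right end (Lo 2, Lo 3) blue for most genes, while H2-DMb1 stays pale throughout.

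The genes were next compared in pairs. Pearson's r of log2 CPM over the 20 tumors is given as a description, since all genes of a tumor share its library and its mix of cells. Over the 28 pairs of members the median r was 0.789, with a range of 0.398 to 0.985, whereas the median r of single members with all other genes tested lay between -0.024 and -0.0047. The highest values were among Cd74, H2-Aa, H2-Ab1 and H2-Eb1, whose 6 pairs lay between 0.941 and 0.985. Ctss joined this set with r of 0.867 to 0.886, and H2-DMa with 0.700 to 0.830. Ciita, the coactivator of class II promoters, had r of 0.748 to 0.793 with the 4 and of 0.557 with Ctss. H2-DMb1 had r of 0.398 to 0.505 with the other members, and its value with H2-DMa, its partner chain, was the lowest of the 28. How far H2-DMb1 stood apart depended on the measure. By Spearman's rho it had 0.406 to 0.651, and the lowest pair was Ciita with Ctss (0.403). On log2(RPKM + 1) its r was 0.598 to 0.701. H2-DMb1 has a near-identical neighbor, H2-DMb2, which stood at 0.556 to 0.779 times its RPKM, and the division of reads between these copies is uncertain.

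**Figure D3:**
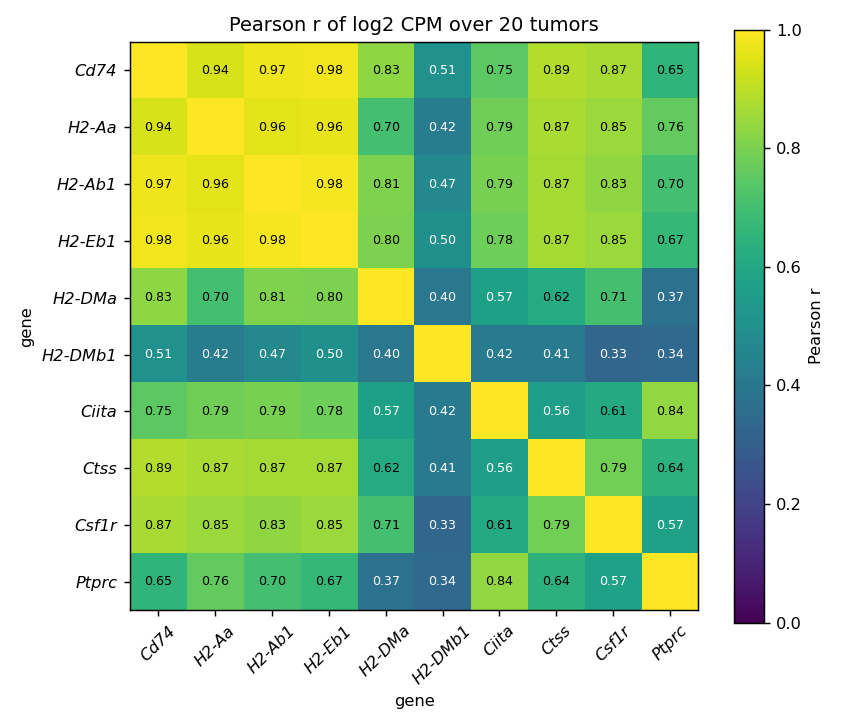
Pearson's r of log2 CPM over the 20 tumors for every pair of the 8 class II genes, Csf1r and Ptprc, on a color axis from 0 to 1. Cd74, H2-Aa, H2-Ab1 and H2-Eb1 form a block with r of 0.941 to 0.985, and the row of H2-DMb1 stays at or below 0.505. Ciita has its highest value with Ptprc (0.837), and Cd74 has 0.869 with Csf1r.

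For each member the 3 most similar genes outside the set, by Pearson's r over 20 tumors, were taken from the 13831 genes whose mean log2 CPM was 1 or more. H2-Ea-ps, the E alpha chain gene, was among the first 2 for Cd74, H2-Aa, H2-Ab1 and H2-Eb1, with r of 0.953 to 0.977. It is annotated as a pseudogene in the C57BL/6 reference, where the gene is not expressed, while the BALB/c haplotype has an expressed copy. Its level was 41.4 RPKM on average, 1.02 to 1.46 times that of H2-Eb1, its partner in the E molecule. Mir5107 was also among the first 3 for these genes and for H2-DMa, with r of 0.995 with Cd74, but its interval (18: 60812076 to 60812163) lies inside that of Cd74 and its reads cannot be told apart from those of Cd74. Cxcl16, a chemokine and scavenger receptor gene, had r of 0.907 to 0.926 with H2-Aa, H2-Ab1 and H2-Eb1, and Tifab had 0.899 with Cd74.

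The other members had different neighbors. Axl, a receptor tyrosine kinase gene, Hcls1, a gene of hematopoietic cells, and Clec7a, the gene of the myeloid receptor dectin-1, came first for Ctss with r of 0.909, 0.907 and 0.896. Gas6, the gene of the ligand of Axl, and Galns, which encodes a lysosomal sulfatase, came first for H2-DMa with 0.849 and 0.843. Pmepa1, Clec16a and Large came first for H2-DMb1 with 0.801, 0.756 and 0.747. Mob3c and Mknk1 were among the genes most like Ciita with 0.905 and 0.892, and both lie on chromosome 4. So did 7 of the 10 and 35 of the 50 genes most like Ciita, against 6.17% of the 18882 genes tested. The level of chromosome 4 as a whole differed between tumors and had r of 0.844 with Ciita, as described below. Ciita itself lies on chromosome 16.

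The class II genes were then set against the leukocyte gene Ptprc and the macrophage gene Csf1r. A slope was fitted for every gene with edgeR, as the log2 change of the gene per log2 unit of the reference gene, so that a slope of 1 means equal fold changes. In whole tumors, fewer cells of a type and less RNA per cell cannot be told apart. On Ptprc, 6 of the 8 class II genes rose, where 1.78% of all genes had a slope called above 0. The steepest were H2-Aa with 1.14 ± 0.22 (SE, adjusted p = 0.00817), Ciita with 1.13 ± 0.18 (adjusted p = 0.003) and H2-Ab1 with 1.08 ± 0.25 (adjusted p = 0.0203). H2-Eb1 rose by 1.04 ± 0.26 (adjusted p = 0.0314), Cd74 by 1.005 ± 0.27 (adjusted p = 0.04) and Ctss by 0.60 ± 0.17 (adjusted p = 0.0475). H2-DMa had a slope of 0.40 ± 0.24 and H2-DMb1 of 0.18 ± 0.13, and neither passed (adjusted p = 0.426 and 0.525). The median slope of the 8 was 1.02, beside -0.01 over all genes tested.

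Some of these calls depended on single tumors. When each of the 20 tumors was left out in turn, H2-Aa and Ciita were called in 20 of 20 fits, with slopes of 0.97 to 1.29 and 1.03 to 1.22. H2-Ab1 lost its call without Hi 5 (adjusted p = 0.0651), and H2-Eb1 without Lo 1, Lo 3, Hi 1, Hi 2 or Hi 5 (slopes 0.87 to 1.18 over all fits, highest adjusted p = 0.0895). Cd74 lost it without any 1 of Lo 1, Lo 2, Lo 3, Lo 6, Hi 1, Hi 2, Hi 5, Hi 9 and Hi 10 (slopes 0.81 to 1.13, highest adjusted p = 0.112). Ctss lost it without any 1 of 13 tumors (Lo 1, Lo 2, Lo 3, Lo 4, Lo 7, Lo 8, Hi 1, Hi 2, Hi 3, Hi 5, Hi 6, Hi 9 and Hi 10), with slopes of 0.48 to 0.69 and a highest adjusted p of 0.117. Without Hi 7 and Lo 1, the tumors farthest from the median of Ptprc, H2-Aa (1.28) and Ciita (1.17) were the 2 class II genes still called. The call of Ctss was also lost with the Lo or Hi name as a covariate (adjusted p = 0.0542) and without the filter on low counts (adjusted p = 0.0616).

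Csf1r varied less between tumors than Ptprc (SD of log2 CPM 0.172 and 0.269), so slopes on these genes are not compared in size. On Csf1r 6 of the 8 class II genes rose, where 1.09% of all genes had a slope called above 0. Cd74 had a slope of 2.18 ± 0.29 (adjusted p = 0.000891), H2-Eb1 of 2.13 ± 0.31 (adjusted p = 0.00133), H2-Ab1 of 2.04 ± 0.31 (adjusted p = 0.0018) and H2-Aa of 2.03 ± 0.30 (adjusted p = 0.00133). A slope above 1 means that the fitted fold change of these 4 genes was larger than that of Csf1r. H2-DMa rose with 1.27 ± 0.31 (adjusted p = 0.0469) and Ctss with 1.195 ± 0.22 (adjusted p = 0.00881). Ciita had a slope of 1.30 ± 0.38 and H2-DMb1 of 0.30 ± 0.20, with adjusted p of 0.0902 and 0.553. The median of the 8 was 1.66, beside -0.02 over all genes.

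The Csf1r slopes of Cd74, H2-Aa, H2-Ab1 and H2-Eb1 were called in each of the 20 fits that left out 1 tumor, with slopes between 1.81 and 2.35. Ctss lost its call without Lo 3 (slope 1.05, adjusted p = 0.103), H2-DMa lost it without any 1 of Lo 1, Lo 2, Lo 3, Lo 4, Lo 6, Lo 7, Lo 11, Hi 2, Hi 4, Hi 5, Hi 8, Hi 9, Hi 10 and Hi 11 (slopes 0.98 to 1.44, highest adjusted p = 0.282), and Ciita gained one without Lo 11 (adjusted p = 0.0466). The call of H2-DMa was also lost with RLE factors (adjusted p = 0.0528) and without the filter on low counts (adjusted p = 0.059). Without both Lo 3 and Hi 5, the tumors with the lowest and highest Csf1r, none of the 8 was called and only 3 genes were called in all. The slopes of the 4 genes were then 1.72 to 1.94, with adjusted p of 0.14 to 0.175.

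Ptprc and Csf1r rose together in part (r = 0.574), so both were also placed in 1 model. With Csf1r in the model, the Ptprc slope was called for Ciita alone among the 8, at 0.98 ± 0.22 (edgeR, adjusted p = 0.0282), where 1.11% of all genes were called above 0. H2-Aa had 0.63 ± 0.18 (adjusted p = 0.0607), and the other 6 lay between -0.06 and 0.51. The Csf1r slope with Ptprc in the model was called for Cd74 (1.86 ± 0.34, adjusted p = 0.0227), H2-Eb1 (1.74 ± 0.35, adjusted p = 0.0286), H2-Ab1 (1.58 ± 0.34, adjusted p = 0.0366) and H2-Aa (1.44 ± 0.29, adjusted p = 0.0286), where 0.302% of all genes were called above 0 and 0.328% below. For Ciita this slope was 0.41 ± 0.34 (adjusted p = 0.56). Whether the slopes of Ciita and of the chains differ from each other was not tested.

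In the joint model the call of Ciita was lost without Lo 9, Lo 11, Hi 1, Hi 3, Hi 4 or Hi 7 (slopes 0.89 to 1.06 over the 20 fits, highest adjusted p = 0.0757), and H2-Aa gained a Ptprc call without Lo 4 or Lo 8 (lowest adjusted p = 0.0413). Of the Csf1r slopes, that of Cd74 was lost without Lo 3 or Hi 4, that of H2-Aa without Lo 3, Lo 9, Hi 3 or Hi 4, that of H2-Eb1 without Lo 3, Lo 9, Lo 11, Hi 3 or Hi 4, and that of H2-Ab1 without any 1 of Lo 3, Lo 9, Lo 11, Hi 3, Hi 4, Hi 5, Hi 6 and Hi 7. The highest adjusted p of these 4 genes were 0.112, 0.166, 0.15 and 0.171, each without Lo 3, and their slopes stayed between 1.24 and 2.12.

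**Figure D4:**
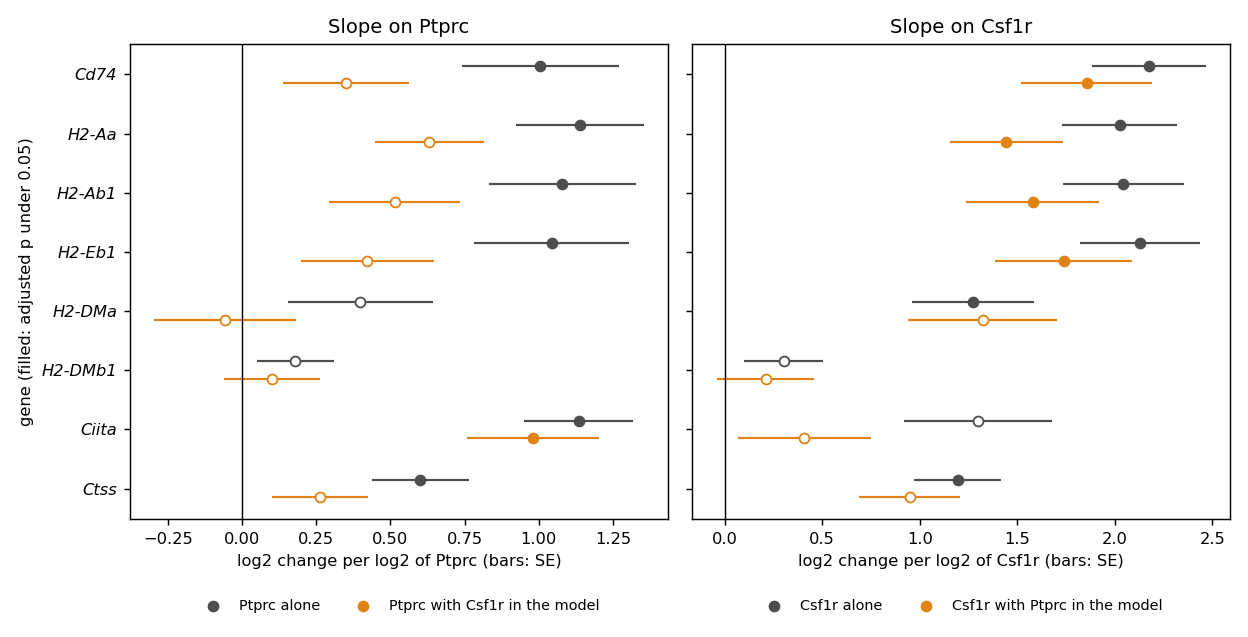
Slopes of the 8 class II genes on Ptprc (left) and on Csf1r (right), as the log2 change of the gene per log2 unit of the reference gene over 20 tumors, with SE as bars. Grey is the model with 1 reference gene and orange the model with both, and filled symbols have an edgeR adjusted p under 0.05. With both genes in the model, Ciita keeps a filled symbol on the Ptprc side (0.98) and Cd74, H2-Aa, H2-Ab1 and H2-Eb1 keep theirs on the Csf1r side (1.44 to 1.86).

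Correlations were computed for each gene with 100000 two-sided permutations of the tumors, and p-values were adjusted over 18882 genes. Cd74 and Csf1r had r = 0.869 (permutation p = 1e-05, the smallest that these permutations can give, adjusted p = 0.00699) and rho = 0.842 (adjusted p = 0.0189). Within the 9 Lo and the 11 Hi tumors r was 0.924 and 0.756, and without Lo 3 and Hi 5 it was 0.752 (permutation p = 0.0003, adjusted p = 0.21). H2-Aa, H2-Eb1, H2-Ab1 and Ctss also passed for Pearson's r with Csf1r (0.850, 0.848, 0.834 and 0.787), so that 5 of the 8 passed where 0.853% of all genes did. Their rho were 0.809, 0.8, 0.788 and 0.699, and by rho 4 of the 8 passed, without Ctss, where 0.365% of all genes did. Without Lo 3 and Hi 5 none of the 18882 genes passed after adjustment, while r of these 5 genes was 0.675 to 0.752 (unadjusted permutation p = 0.00246 to 0.0003).

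Ciita and Ptprc had r = 0.837 (permutation p = 1e-05, adjusted p = 0.00944) and rho = 0.856 (adjusted p = 0.0145). Within Lo and Hi r was 0.822 and 0.863, and without Hi 7 and Lo 1 it was 0.8 (permutation p = 2e-05, adjusted p = 0.021). H2-Aa (0.761, adjusted permutation p = 0.0187) and H2-Ab1 (0.700, adjusted permutation p = 0.0366) passed as well, so that 3 of 8 passed with Ptprc where 1.43% of all genes did. Their rho were 0.756 and 0.740, and by rho H2-Eb1 passed too, which made 4 of 8 where 1.24% of all genes did. Without Hi 7 and Lo 1, r was 0.752 for H2-Aa (adjusted permutation p = 0.038) and 0.675 for H2-Ab1, which no longer passed (adjusted permutation p = 0.0797). H2-DMb1 had r = 0.341 with Ptprc and 0.331 with Csf1r (permutation p = 0.142 and 0.154). Within the Lo or the Hi tumors alone no class II gene passed after adjustment, and almost no other gene did. Within Lo 0 of 18882 genes passed. Within Hi 12 passed for Pearson's r with Ptprc and 0 for rho or with Csf1r.

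**Figure D5:**
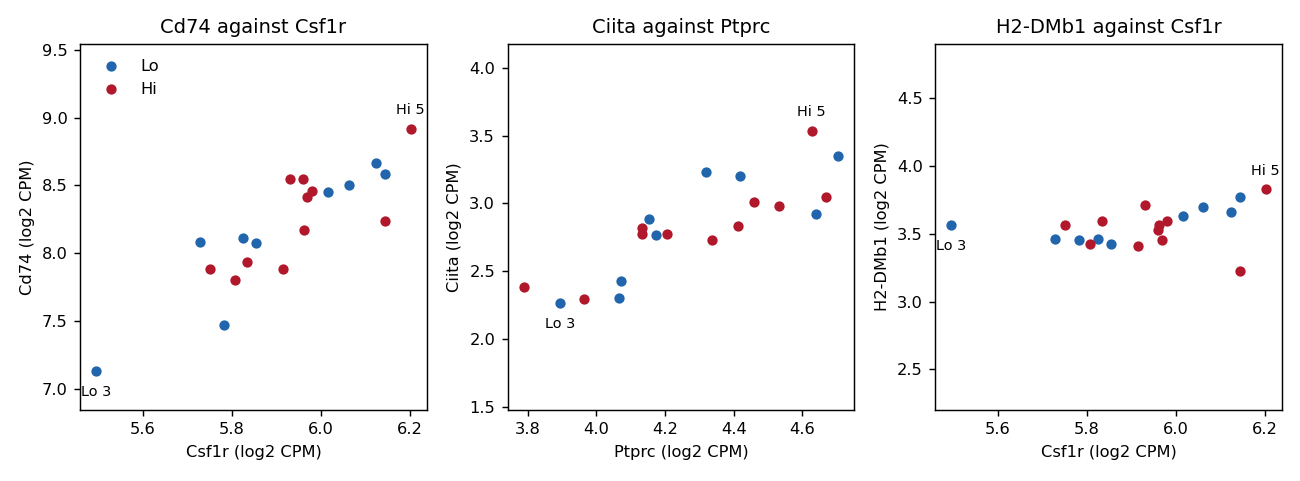
Log2 CPM of Cd74 against Csf1r, of Ciita against Ptprc and of H2-DMb1 against Csf1r, 1 point per tumor (Lo in blue, Hi in red), with Lo 3 and Hi 5 marked and the same vertical span in each panel. Cd74 rises with Csf1r (r = 0.869), with Lo 3 and Hi 5 at the ends, and Ciita rises with Ptprc (r = 0.837). H2-DMb1 stays nearly level (r = 0.331).

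Slopes were also compared between Lo and Hi. The Ptprc slope was larger in Lo by 0.00 to 0.96 for the 8 genes, the largest being H2-DMa with 0.96 ± 0.48 (SE, edgeR unadjusted p = 0.0581, adjusted p = 0.774). The Csf1r slope differed by -0.20 to 0.83, again with H2-DMa at the upper end (0.83 ± 0.66). None was called, where edgeR called 0.0% of all genes in either direction for both slopes. Of 18882 genes tested, 1214 (Ptprc slope) and 684 (Csf1r slope) had an edgeR unadjusted p under 0.05. With no difference in any gene, a share of about 0.05 of them would pass that threshold. DESeq2 called 4 genes for each slope and none of the 8.

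A further measure moved with the class II genes and with both reference genes. The chromosome 4 level of a tumor, taken as the median deviation of 739 chromosome 4 genes minus that of all autosomal genes, ran from -0.21 in Lo 2 to 0.37 log2 units in Hi 5. None of the class II genes and neither reference gene lies on this chromosome. The paper reports expression along this chromosome skewed toward FVB alleles, and clonal loss of a copy in karyotyped tumor cells. How far the chromosome 4 level followed the mix of cells in a tumor was not tested. The r of this level was 0.844 with Ciita, 0.830 with H2-Aa, 0.782 to 0.790 with Cd74, H2-Ab1 and H2-Eb1, 0.637 with Ctss, 0.537 with H2-DMa and 0.490 with H2-DMb1, and it was 0.772 with Ptprc and 0.681 with Csf1r. Of the genes whose Ptprc slope was called above 0, 45.8% lay on chromosome 4, against 6.17% of all genes tested. For the Csf1r slope this share was 32.7%.

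With the chromosome 4 level added to the models, a choice made after the data were seen, none of the 8 genes was called by edgeR on either reference gene. On Ptprc the slope of Ciita was 0.63 ± 0.25 (adjusted p = 0.497) and that of H2-Aa 0.45 ± 0.29 (adjusted p = 0.648), with 0 genes called in all. The Ptprc slopes of H2-Ab1, H2-Eb1 and Cd74, all above 1 without this term, were 0.36 ± 0.34, 0.24 ± 0.35 and 0.21 ± 0.36, and that of Ctss was 0.36 ± 0.25. On Csf1r the slopes of Cd74, H2-Eb1, H2-Ab1 and H2-Aa were 1.59 ± 0.35, 1.45 ± 0.36, 1.36 ± 0.37 and 1.23 ± 0.32 (adjusted p = 0.0991 to 0.148), with 2 genes called in all. The Csf1r slope of Ciita was 0.13 ± 0.39, against 1.30 ± 0.38 without this term. The chromosome 4 level had r of 0.772 with Ptprc and 0.681 with Csf1r. Adding it therefore also takes away part of the variation in these reference genes. The level was not measured apart from the mix of cells, so the lost calls do not show an effect of the chromosome. The part of chromosome 4 in the levels of the class II genes was not tested beyond these fits.

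Other genes of the pathway were examined as whole lists. Of the 4 remaining class II family genes that could be tested, H2-Ea-ps rose on both reference genes (1.09 ± 0.22 on Ptprc and 1.92 ± 0.29 on Csf1r), and H2-Ob, a chain of the DM inhibitor H2-DO, rose on Ptprc (1.36 ± 0.32). H2-DMb2 and H2-Oa were not called, and H2-Eb2 was too low to test. Among 7 factors that bind class II promoters (Rfx5, Rfxank, Rfxap, Nfya, Nfyb, Nfyc and Creb1), Nfyc rose on Ptprc (0.54 ± 0.14, edgeR adjusted p = 0.0318) and none on Csf1r, and the list had median slopes of -0.07 and -0.03. Their median r with each class II gene lay between -0.22 and 0.10, although Nfyc had r of 0.784 and Rfx5 of 0.708 with Ciita. Nfyc lies on chromosome 4, and with the chromosome 4 level in the model its Ptprc slope was 0.07 ± 0.17 (edgeR adjusted p = 0.934). With Csf1r in the model, Rfx5 rose on Ptprc (0.73 ± 0.18, edgeR adjusted p = 0.0378) and Rfxap fell (-0.64 ± 0.18, edgeR adjusted p = 0.0492). Among 5 genes of class II peptide processing and turnover, March1, a ubiquitin ligase gene that acts on class II molecules, rose on Ptprc (0.88 ± 0.23) and Lgmn, a lysosomal protease gene, on Csf1r (0.73 ± 0.18).

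Of 11 tested genes of the interferon gamma axis, only the receptor gene Ifngr1 rose on Ptprc (0.48 ± 0.13, adjusted p = 0.0427) and none on Csf1r, with list medians of 0.64 and 0.63. The median r over this list was 0.332 with Cd74, from -0.0374 for Cxcl10 to 0.699 for Ifngr1. With Ciita it was 0.331, from 0.013 for Jak2 to 0.728 for Irf1. Ifng was too low to test, with a median of 0.0123 CPM. None of 8 class I presentation genes was called on either reference gene, with medians of 1.04 on Ptprc and 1.17 on Csf1r. The median r over the 8 class I genes was 0.370 with Cd74, 0.5 with H2-Aa and 0.193 with H2-DMa. Between Lo and Hi, class I genes had a median log2 difference of 0.67 and none was called.

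Markers of cells that can express class II molecules were set beside these genes. Of 8 macrophage genes, Adgre1, C1qa, C1qb and C1qc rose on Csf1r (0.96 to 1.06) and none on Ptprc. C1qa, C1qb and C1qc encode complement C1q, and Adgre1 encodes the macrophage antigen F4/80. The 3 C1q genes lie on chromosome 4, and with the chromosome 4 level in the model their Csf1r slopes were 1.33 ± 0.21, 1.21 ± 0.22 and 1.25 ± 0.24 (edgeR adjusted p = 0.0451, 0.0517 and 0.0677), while that of Adgre1 was 0.84 ± 0.25 (edgeR adjusted p = 0.193). Of the macrophage genes not called on Csf1r, Mrc1 had a slope of 1.46, Fcgr1 of 1.16, Cd68 of 0.21 and Mertk of -0.70. C1qa had r of 0.755 with Cd74, and the list as a whole had a median r of 0.761 with Ctss, 0.679 with Cd74, 0.327 with Ciita and 0.198 with H2-DMb1. The summed level of the 8 ran from 218.5 to 350.9 CPM in Lo and from 236.9 to 372.1 CPM in Hi. Of 7 tested dendritic cell genes, Itgax, which encodes CD11c and is also expressed by macrophages, rose on both (0.79 ± 0.19 on Ptprc and 1.26 ± 0.29 on Csf1r) and had r of 0.845 to 0.875 with Cd74, H2-Aa, H2-Ab1 and H2-Eb1. Of the other dendritic cell genes, Flt3, Cd209a, Xcr1, Clec9a, Ccr7 and Batf3 had median levels under 1 CPM and Zbtb46, a transcription factor gene of conventional dendritic cells, had 3.52 CPM (2.44 to 6.86), with r of 0.07 to 0.13 with Cd74, H2-Aa, H2-Ab1 and H2-Eb1, and the sum of the 8 ran from 16.9 to 35.2 CPM in Lo and from 18.03 to 29.3 CPM in Hi.

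All 6 B cell genes had median levels under 1 CPM, and their sum stayed between 0.517 and 1.46 CPM in all tumors, with Pax5 at a median of 0. The 6 T cell genes summed to 2.63 to 5.45 CPM in Lo and 3.06 to 7.69 CPM in Hi. None was called on either reference gene, although their median slopes were 1.91 on Ptprc and 1.53 on Csf1r. Of these genes, Cd3e, Cd3d, Cd3g and Cd8a had median levels under 1 CPM. The label of breast tumor was matched by epithelial genes, with a mean of 522.1 RPKM for Epcam and 437.3 RPKM for Krt8. Of the 6 epithelial genes 1 rose on Csf1r, Krt19 with 3.39 ± 0.60 (edgeR adjusted p = 0.00718), and it had r of 0.802 to 0.827 with Cd74, H2-Aa, H2-Ab1 and H2-Eb1. The other 5 had r of -0.363 to 0.412 with Cd74. Of all the genes of these lists called on Ptprc or Csf1r, C1qa (on Csf1r) was the 1 still called with the chromosome 4 level in the model. The part of any of these cell types in the levels of the class II genes was not tested.

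Between 38765682 and 65465755 reads were counted on genes per tumor. A ribosomal RNA locus took 6.29% to 27.7% of them, which lowers RPKM of all other genes in a tumor and does not enter the TMM-normalized CPM in the same way. Each class II gene was well covered, from 172 counts for Ciita in Lo 2 to 27160 for Cd74. Reads from BALB/c and FVB/J alleles were aligned to the C57BL/6 reference, and the effect of allele differences on the count of these polymorphic genes was not tested. Ciita overlaps the gene Dexi in part, and the strand setting of the counting is not given in the sources used here.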

How the data were processed

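RNA from 1 piece of tumor per mouse was made into TruSeq mRNA libraries and sequenced in paired reads, which the authors trimmed and aligned to mm10 within MapRseq. The submitters' processing notes name TopHat2 2.0.12 and featureCounts 1.4.4. What the authors deposited are raw gene counts, not normalized. From these counts, CPM (TMM factors, prior count 2 on the log2 scale) and RPKM (total counts and listed gene length) were computed. Genes were kept with filterByExpr and tested with edgeR 4.0.16 (quasi-likelihood test, Benjamini-Hochberg over all genes, threshold 0.05) in R 4.3.3, with DESeq2 1.42.0 as an alternative. Correlations used Python 3.11.15 and scipy 1.17.1, with 100000 permutations, or exact ones within the 9 Lo tumors. Scripts were tested on simulated data.

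The 8 members, the gene lists and the tests were chosen with earlier results of these data known. Named genes were the members, the reference genes, genes of the lists and, for each member, the 3 genes of highest r. Some items that these rules name are not reported here. Adgre1 was found under its older symbol Emr1. Tumors are separate animals. Dexi and Mir5107 were also named because their intervals overlap members. Fits that left out 1 tumor and fits with the chromosome 4 level were added after the data were seen.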

Additional observations from a re-analysis of the deposited data

How the results depend on the processing

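The edgeR counts of genes and of class II genes called changed as follows. For the Ptprc slope, 580 genes and 6 class II genes were called, against 1108 genes with DESeq2, 2 class II genes without the 2 tumors farthest from the median, 194 genes with the replicate block, and 0 genes and 0 class II genes with the chromosome 4 level. For the Csf1r slope, 229 genes and 6 class II genes became 618 genes with DESeq2, 3 and 0 without the 2 farthest tumors, 5 and 0 with the replicate block, and 2 and 0 with the chromosome 4 level. For the Ptprc slope with Csf1r in the model, 551 and 1 became 1407 and 2 with DESeq2, 36 and 0 without the farthest tumors and 0 and 0 with the chromosome 4 level. For the Csf1r slope with Ptprc, 119 and 4 became 536 genes with DESeq2, 0 and 0 without the farthest tumors and 3 and 0 with the chromosome 4 level. The Lo and Hi comparison went from 0 genes to 1 without a filter and 1 with DESeq2, at equal Ptprc to 1 and 3, and each slope difference to 4 with DESeq2. The causes were not tested.

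When single tumors were left out, the Ptprc slope gave 236 to 641 genes (lowest without Hi 5) and 2 to 6 class II genes, and the Csf1r slope 26 (without Lo 3) to 494 genes and 4 to 6 class II genes. In the joint model the ranges were 0 (without Hi 3) to 1312 genes and 0 to 2 class II genes for Ptprc, and 0 (without Lo 3) to 175 genes and 0 to 4 class II genes for Csf1r.

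For Pearson's r with Ptprc, 3 class II genes passed, against 7 on log2(RPKM + 1) and 0 within Lo or within Hi. Over all genes 480 passed, against 1877 on log2(RPKM + 1), 0 within Lo and 12 within Hi. For Spearman's rho, 4 class II genes passed, against 1 without the 2 farthest tumors and 0 within Lo or within Hi. The counts over all genes were 398, 126 and 0. With Csf1r, 5 class II genes passed for Pearson's r, against 8 on log2(RPKM + 1), and 4 for Spearman's rho. Over all genes these counts were 180, 2082 and 78. No gene at all passed for either measure without the farthest tumors or within Lo or Hi. On log2(RPKM + 1) the median r over all genes was 0.266 with Ptprc and 0.293 with Csf1r, against 0.00026 and -0.0135 on log2 CPM.

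Values that changed sign were those of genes not called. With the replicate block, the log2 difference between Lo and Hi became -0.00845 for H2-DMa (-0.00642 at equal Ptprc) and 0.0535 for Ciita. With the chromosome 4 level, the Ptprc slope became -0.0876 for H2-DMa and -0.0547 for H2-DMb1 (-0.0593 with Csf1r in the model). With Csf1r in the model and 1 tumor left out, that slope ran from -0.165 to 0.0738 for H2-DMa (above 0 without Hi 3 or Hi 7, and 0.115 without the 2 farthest tumors) and from -0.0206 (without Hi 6) to 0.189 for H2-DMb1. The Ptprc slope difference of H2-DMb1 became -0.0152 with RLE factors, -0.0191 with DESeq2 and -0.204 without the farthest tumors. The Csf1r slope difference of H2-Eb1 became 0.0179 with RLE factors and 0.0183 with DESeq2, and without the farthest tumors that of Ciita became 0.545 and that of Ctss -0.0483. Within Hi, r of H2-DMa with Ptprc was -0.0237.

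Lo and Hi tumors share numbers in their names. Over the 9 shared numbers r of the deviations from the group means ran from -0.42 to 0.21 and was over 0.1 in 3. Of the Lo tumors, 1 correlated best with its own number. The sources used here do not state what the shared number stands for, and these values cannot settle it. With this number as a replicate block, 5 class II genes kept a Ptprc call (Ctss had adjusted p = 0.0508) and none a Csf1r call (Cd74 2.18, adjusted p = 0.116). The median r of member pairs was 0.832 on log2(RPKM + 1) and 0.694 with Spearman's rho. With totals that leave out the ribosomal RNA locus, mean RPKM rose, from 218.1 to 257.6 for Cd74 and from 7.93 to 9.41 for H2-DMb1, the latter by more than its SD. At 9 and 11 tumors, small differences between Lo and Hi cannot be shown.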
